A study of Mus musculus with 4 samples.

Results

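The RNA described here came from mouse D3 embryonic stem cells transfected with small interfering RNA against Pnpla6, labelled siNTE and called silenced cells below, after 24 h and 96 h of differentiation. It was one of the 2 RNAs on each of 4 two-colour Agilent whole mouse genome arrays, so silenced cells supplied 4 of the 8 channels: Cy3 on replicate 1 and Cy5 on replicate 2 of each time. Each 96 h channel was set against the 24 h channel of the same dye and replicate number, which gave 2 same-dye pairs. The other channel of every array held RNA of control D3 cells of the same time, in the opposite dye. D3 is one established embryonic stem cell line. All groups were cultured as embryoid bodies in serum-containing medium without LIF, the cytokine that holds mouse embryonic stem cells undifferentiated, and the labels do not state what, if anything, the control cells were transfected with. There were 2 silenced samples at each time, and nothing in the labels shows that they were separate cultures. The p-values rest on a spread pooled over all 8 channels, control cells included, after a dye effect was removed, and moderated over genes. That spread may be technical.

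Pnpla6 encodes neuropathy target esterase, a membrane-bound lysophospholipase that acts on phosphatidylcholine and its lyso form. When embryonic stem cells aggregate without LIF, transcription factors of the naive state are lost over days, an epiblast-like state marked by Otx2 and Fgf5 appears, the outer cells become extraembryonic endoderm that makes basement membrane, and germ-layer genes follow later. A transfected siRNA is diluted as cells divide, so a 24 h sample and a 96 h sample differ in siRNA exposure as well as in stage of differentiation. In this comparison those cannot be told apart within the silenced cells.

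Between 62.5% and 68.7% of 43379 non-control spots were well above background in the silenced channels, and no spot was saturated. The 2 channels of a time correlated at 0.997 over genes, and channels of different times at 0.977 (replicate 1) and 0.975 (replicate 2). Of the arrays, 3 shared a slide, whereas 96 h replicate 2 lay alone on another slide, and with slide as a block 9704 genes changed over time where 11669 did without it. The targeted gene checked the labels in part. Levels here and below are normalized log2 intensities, with replicate 1 before replicate 2. Pnpla6 had 10.11 and 9.81 at 24 h and 10.61 and 10.37 at 96 h in silenced cells, against control means of 10.82 at 24 h and 10.48 at 96 h. On this probe the silenced mean was below control at 24 h (9.96) and at the control level at 96 h (10.49). The name silenced therefore marks the siRNA given, and not lower Pnpla6 RNA at 96 h. Both silenced values at 24 h lay below both at 96 h, and the rise was 0.53 on the log2 scale (SE 0.09, n = 2 samples per time, limma adjusted p = 1.8e-04). A second, dimmer Pnpla6 probe, not used in the test, gave a 96 h minus 24 h difference of −0.09 in silenced cells, and with the mean of both probes the call was lost.

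The main question was which transcripts changed in silenced cells between 24 h and 96 h. Of 21751 genes tested, 11669 (53.6%) passed a Benjamini-Hochberg adjusted p of 0.05 in limma, 5872 higher (27%) and 5797 lower (26.7%) at 96 h. A change of 2-fold or more was seen in 862 genes that rose (3.96%) and 417 that fell (1.92%), and a change of 4-fold or more in 83 and 42. All but 1 of the 11669 had the same sign in both same-dye pairs. The tested change is the mean of these 2 pairs, so a gene whose pairs differ in sign seldom passes. Over all genes tested the changes of the pairs correlated at 0.94, and genes are not independent replicates. Without 96 h replicate 2, the sample on the second slide, 8390 genes were called. With arrays only centred on their median, 44.0% of the calls were rises, against 50.3% in the fit reported here, and with Feature Extraction's processed signals, which carry no offset, 2207 genes rose and 1302 fell by 2-fold or more. With 53.6% of all genes called, the counts of a list below are to be read against these shares, and its median against that of all genes, −0.01. A count near 27% higher or 26.7% lower does not set a list apart from all genes. A range beside a list's median gives its lowest and highest value under the alternatives, for medians that moved by over 1.5 times. Differences are log2 intensity at 96 h minus 24 h. They are understated for dim genes, since an offset was added to every signal.

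**Figure D1:**
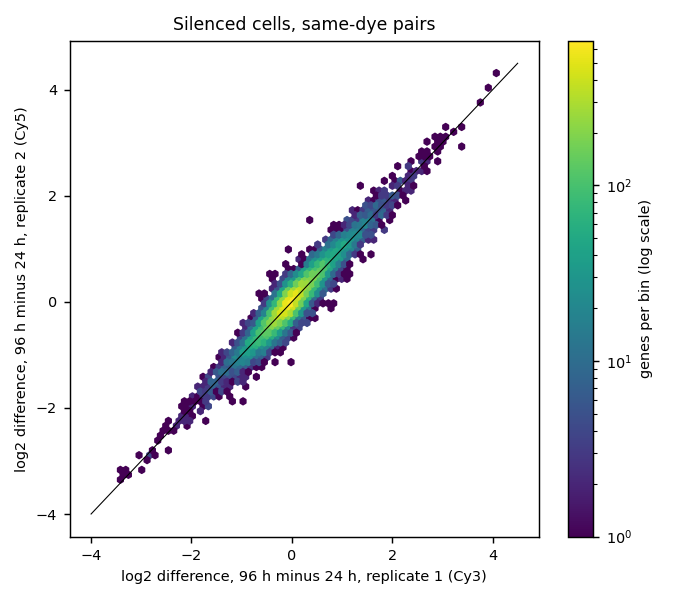
Log2 difference between 96 h and 24 h in silenced cells, replicate 1 (Cy3, horizontal) against replicate 2 (Cy5, vertical), for 21751 genes; colour gives the genes per bin on a log scale and the line marks equality. The cloud lies along the line of equality, with a correlation of 0.94.

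The largest rises among genes with a plain symbol included genes of epithelia, trophoblast, the germ line and metabolism. Tfap2c, a transcription factor of trophoblast and germ cells, had 8.36 and 8.26 at 24 h and 12.23 and 12.27 at 96 h, a rise of 3.94 (SE 0.08, 15.4-fold, limma adjusted p = 5.8e-12). Krt18, a keratin of simple epithelia, had 10.98 and 11.08 at 24 h and 14.74 and 14.86 at 96 h and rose by 3.77 (SE 0.07, 13.7-fold, limma adjusted p = 5.8e-12). In both genes the 96 h channels were far above the 24 h channels and differed from each other by little. Car4, a membrane-anchored carbonic anhydrase, had 6.46 and 6.52 at 24 h and 9.82 and 9.86 at 96 h. Stra8, which retinoic acid induces before meiosis, had 6.79 and 6.85 at 24 h and 9.79 and 9.90 at 96 h. Ddit4, an inhibitor of mTORC1 that hypoxia and stress induce, had 12.09 and 11.86 at 24 h and 14.95 and 14.95 at 96 h. Pygl, liver glycogen phosphorylase, had 7.15 and 6.97 at 24 h and 10.13 and 10.12 at 96 h. The groups did not overlap in any of these genes, which were chosen for large changes in these same channels. The other rises among the 15 largest ranged from 2.74 for Amy1, an amylase, to 3.19 for Pdlim4, an actin-associated PDZ and LIM domain protein, and included the scaffold Pdzk1 (3.10), Crtac1 (3.12), the annexin Anxa8 (2.96), Adssl1 of purine synthesis (2.92), Fndc3c1 (2.87), Svop (2.82) and the p38 kinase Mapk13 (2.75). Dimmer second probes of Crtac1, Fndc3c1 and Svop rose less, by 0.93, 1.05 and 0.68.

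The largest falls among genes with a plain symbol included cytoskeletal, growth-factor-induced and BMP-induced genes. Crct1, a gene of the epidermal differentiation complex, had 9.65 and 9.40 at 24 h and 6.23 and 6.07 at 96 h and fell by 3.38 on the log2 scale (SE 0.08, limma adjusted p = 1.8e-11). At 96 h only 1 of its 2 channels was well above background. Vim, the intermediate filament of mesenchymal cells, had 11.99 and 11.93 at 24 h and 8.73 and 8.76 at 96 h, a change of −3.21 (SE 0.08, limma adjusted p = 1.8e-11). Egr1, an immediate early transcription factor, had 10.83 and 10.95 at 24 h and 7.98 and 8.08 at 96 h. Id3, a target of BMP signalling, had 11.26 and 11.17 at 24 h and 8.41 and 8.32 at 96 h, and Nefl, the light neurofilament chain, 10.64 and 10.74 at 24 h and 7.88 and 7.98 at 96 h. In each of these the 24 h values lay above the 96 h values without overlap, as the choice of the largest falls requires. Sall3 (−3.29), the receptor Gpr83 (−3.29), the homeodomain-only protein Hopx (−3.26), the glutathione transferase Gsta3 (−3.05), titin, Ttn (−2.96), galectin-3, Lgals3 (−2.92), Fetub (−2.89), Emp1 (−2.88) and Accsl (−2.65) also fell. Dimmer probes gave −2.35 for Sall3 and from −2.47 to −0.84 for Ttn. Cabs1 was not well above background at 96 h, so its fall is a bound of at least 6.86-fold (limma adjusted p = 1.6e-10), from measured means of 8.87 at 24 h and 6.09 at 96 h. Of all genes called, 326 that rose had no channel well above background at 24 h and 109 that fell had none at 96 h, so their fitted differences are not measured on both sides.

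**Figure D2:**
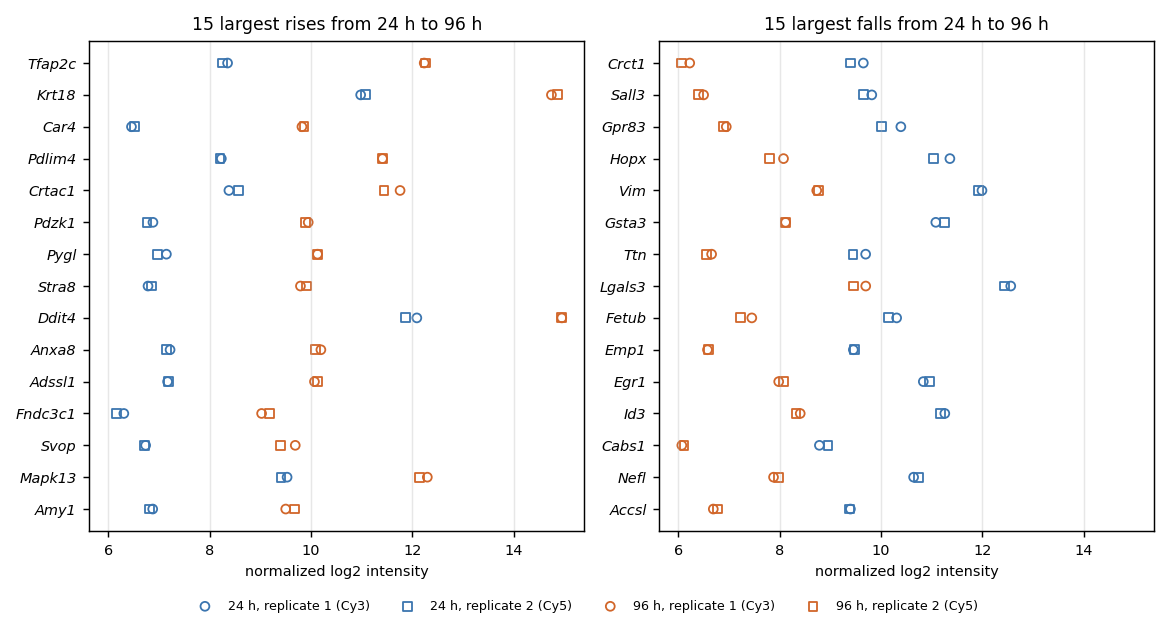
Normalized log2 intensity of the 15 genes with the largest rise (left) and the 15 with the largest fall (right), among genes with a plain symbol, in the 4 channels of silenced cells; circles are replicate 1 (Cy3), squares replicate 2 (Cy5), blue 24 h and orange 96 h. Changes run from 2.74 to 3.94 upward and from −2.65 to −3.38 downward. The 30 genes were chosen for large changes in these 4 channels, so the separation of their 24 h and 96 h values follows from the choice.

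Naive pluripotency genes split. Of 24 tested members, 3 rose and 9 fell, with a median of 0.04 that lay between −0.13 and 0.07 under the alternatives. Gbx2, which acts downstream of LIF, had 11.09 and 11.00 at 24 h and 8.76 and 8.58 at 96 h (−2.38, SE 0.08, limma adjusted p = 2.5e-10), and Klf5 had 12.39 and 12.27 at 24 h and 10.84 and 10.74 at 96 h. Nr0b1, an orphan receptor that partners core factors, had 12.82 and 13.79 at 24 h and 11.68 and 11.91 at 96 h; its 24 h replicates lay almost 1 log2 unit apart, but both were above 96 h. Dppa2 fell by 1.33 on the log2 scale and the LIF receptor Lifr by 0.68, while 1 of 3 other Lifr probes gave 0.15. Against these, the homeodomain factor Nanog had 12.14 and 12.35 at 24 h and 12.16 and 12.35 at 96 h (0.01, limma adjusted p = 0.90), Esrrb 13.12 and 13.11 at 24 h and 13.16 and 13.29 at 96 h, and Klf4 15.38 and 15.07 at 24 h and 15.35 and 15.40 at 96 h. The time groups overlapped in Nanog and Klf4, and none of the 3 genes passed. Klf4 passed without 24 h replicate 1 (0.35). Dppa3, a gene of the inner cell mass and germ cells, rose by 1.87, Socs3, the feedback inhibitor of STAT3, by 1.27 and Fbxo15 by 0.77; without 24 h replicate 1, 5 members rose.

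Among general pluripotency genes 10 of 17 fell, 4 rose and the median was −0.28; without 96 h replicate 2 only 6 fell. Pou5f1, the POU factor OCT4 on which the pluripotent state depends, had 14.68 and 14.09 at 24 h and 13.70 and 12.25 at 96 h (−1.41, SE 0.14, limma adjusted p = 3.3e-06). Both 24 h values exceeded both 96 h values, yet the 96 h channels differed by more than the change of pair 1. Foxd3, a forkhead factor, had 9.33 and 9.21 at 24 h and 7.73 and 7.50 at 96 h, the Nodal-related ligand Gdf3 11.58 and 11.48 at 24 h and 10.80 and 10.75 at 96 h, and Utf1 changed by −0.35. Sox2, the HMG-box partner of OCT4, rose instead, with 11.71 and 11.75 at 24 h and 12.18 and 12.49 at 96 h (0.60, SE 0.09, limma adjusted p = 1.3e-04). Of the 4 marker genes of embryonic stem cells, all were well above background in every silenced channel, and their mean level was 13.26 and 13.16 at 24 h and 13.08 and 12.78 at 96 h. In bulk RNA of embryoid bodies, fewer cells of a type and less RNA per cell cannot be told apart.

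Primed epiblast genes followed no single direction: 6 of 16 rose and 4 fell, 37.5% and 25% beside 27% and 26.7% of all genes (median 0.13, range 0.03 to 0.18). Fgf5, the secreted factor that defines the post-implantation epiblast, had 7.94 and 7.90 at 24 h and 9.79 and 10.16 at 96 h (2.05, SE 0.10, limma adjusted p = 4.5e-09), and Otx2 had 9.74 and 9.72 at 24 h and 10.59 and 10.65 at 96 h. Sall2 (1.57), the Wnt antagonist Sfrp2 (1.69) and the kinase Pim2 (0.96) also rose. The de novo methyltransferase Dnmt3b (0.15) and the POU factor Pou3f1 (0.16) did not pass, while Fgf15, a factor of the neural plate, fell by 1.33 on the log2 scale. The main primitive streak regulators were not called: the brachyury gene T was at 6.14 and 6.09 at 24 h and 6.14 and 6.14 at 96 h and Mesp1 at 6.21 and 6.07 at 24 h and 6.21 and 6.22 at 96 h, each well above background in only 1 of 2 channels at 24 h. Eomes was at 6.97 and 7.01 at 24 h and 7.08 and 7.10 at 96 h, and none of these 3 passed. Of 18 streak genes 5 rose and 2 fell, beside 27% and 26.7% of all genes. In 2 of the 18 no silenced channel was well above background at 24 h. Among the 10 well above background in all 4 silenced channels, 3 rose and 0 fell. The ligand Wnt3 had 6.21 and 6.11 at 24 h and 6.85 and 6.79 at 96 h, with 1 of 2 channels well above background at 24 h. Tbx6 rose by 0.50.

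Mesoderm and heart genes were mixed, with a median near that of all genes (−0.01), and neural genes fell more often than they rose. In the mesoderm and heart list 5 of 26 rose and 9 fell (median −0.02, range −0.19 to −0.02). These are 19.2% and 34.6%, beside 27% and 26.7% of all genes. Leaving out 24 h replicate 2, 96 h replicate 1 or 96 h replicate 2 left 3 that rose. Bmp4, the ligand that induces mesoderm, had 11.75 and 11.81 at 24 h and 10.27 and 10.28 at 96 h, and Kdr, a VEGF receptor of early mesoderm, had 6.77 and 6.77 at 24 h and 6.16 and 6.11 at 96 h, with 1 of 2 channels well above background at 96 h. Pdgfrb rose by 0.72. In 5 of the 26 mesoderm and heart genes no silenced channel was well above background at 24 h. Among the 18 well above background in all 4 silenced channels, 2 rose and 7 fell. Of 24 neural genes 4 rose and 11 fell, 16.7% and 45.8% beside the same shares of all genes (median −0.13, range −0.36 to −0.06). Nes, the intermediate filament nestin of neural progenitors, had 9.26 and 9.26 at 24 h and 8.39 and 8.46 at 96 h (−0.83, SE 0.08, limma adjusted p = 1.4e-06). Meis2 fell by 1.92 and En2 by 1.11 on the log2 scale, whereas Hes5, a Notch target, rose by 1.01 and the RNA-binding protein gene Elavl3 by 1.20. Sox1 (−0.12) did not pass, and 12 Hox genes were tested, of which 3 rose (1 without 96 h replicate 2) and 2 fell (1 without 24 h replicate 1 or 96 h replicate 1 or 2).

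Genes of extraembryonic endoderm rose in 14 of 25 tested cases and fell in 1, beside 27% and 26.7% of all genes, with a median of 0.45 (range 0.11 to 0.94). Of the 25, 7 had no silenced channel well above background at 24 h. Among the 16 well above background in all 4 silenced channels 10 rose and 1 fell. Cubn, cubilin of the visceral endoderm's uptake receptor, had 6.54 and 6.56 at 24 h and 8.22 and 8.44 at 96 h (1.79, SE 0.09, limma adjusted p = 4.2e-09). Its partner Amn had 6.72 and 6.75 at 24 h and 7.92 and 7.74 at 96 h, the related receptor Lrp2 9.73 and 9.98 at 24 h and 11.01 and 11.22 at 96 h, and the adaptor Dab2 6.63 and 6.43 at 24 h and 7.68 and 7.53 at 96 h. All 4 genes of this uptake machinery were higher in both 96 h channels. The transcription factors that found the lineage were not called: Gata6 was at 7.03 and 7.20 at 24 h and 7.01 and 7.17 at 96 h, Sox17 at 6.77 and 6.63 at 24 h and 6.65 and 6.66 at 96 h and Gata4 at 6.15 and 6.27 at 24 h and 6.25 and 6.14 at 96 h, where 1 of 2 channels was well above background at 24 h. None of the 3 passed. A dimmer second Gata6 probe gave 0.64, and with the mean of both Gata6 rose by 0.31 and passed. With Feature Extraction's processed signals Gata4 rose by 0.54 and passed. The 7 fixed markers of this lineage included 6 tested genes, whose mean level was 6.52 and 6.56 at 24 h and 7.07 and 7.11 at 96 h; Ttr was not well above background in any silenced channel. Dimmer probes gave 0.21 and 0.39 for Lrp2 and 0.08 for Dab2.

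Basement membrane genes rose in 8 of 14 cases and fell in 2 (1 without 24 h replicate 1 or 96 h replicate 1 or 2), with a median of 0.39 (range 0.25 to 0.41). The collagen IV chains Col4a1 (10.38 and 10.24 at 24 h and 11.22 and 11.00 at 96 h) and Col4a2 (0.69), the linker Nid1 (0.64) and the collagen-modifying enzymes Plod2 (1.37) and P4ha2 (1.27) rose. Lama1, the laminin chain of the first basement membranes, fell, with 7.55 and 8.11 at 24 h and 6.81 and 6.74 at 96 h (−1.05, SE 0.13, limma adjusted p = 2.4e-05). Interstitial matrix and feeder fibroblast genes rose in 6 of 11 cases and fell in 1, Vim, with a median of 0.35 (range 0.06 to 0.48). Fbln2, a matrix glycoprotein, rose by 2.26, the chemokine Cxcl12 by 1.09, where a probe near background gave 0.00, and Col1a1 had 6.24 and 6.18 at 24 h and 6.83 and 6.74 at 96 h, with 1 of 2 channels well above background at 24 h. Of 8 fixed feeder fibroblast markers 5 were tested and 3 rose; their mean level was 7.36 in both 24 h channels and 7.83 in both 96 h channels, and Col3a1, Lum and Postn were not well above background in any silenced channel. Whether such cells had a part in the matrix result was not tested.

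Epithelial genes were the list with the highest share of rises, 12 of 15, and 2 fell (median 0.65). Tight junction claudins rose together: Cldn7 had 8.30 and 8.19 at 24 h and 10.92 and 10.67 at 96 h (2.55, SE 0.09, limma adjusted p = 2.3e-10), Cldn6 8.04 and 7.98 at 24 h and 9.50 and 9.43 at 96 h and Cldn4 9.32 and 8.89 at 24 h and 10.87 and 10.08 at 96 h. Krt19, another simple keratin, had 7.03 and 7.12 at 24 h and 8.82 and 8.72 at 96 h, and the adhesion molecule Cdh1 rose by 0.65. Krt8, the partner of Krt18, rose by only 0.24 and lost its call without any 1 of the 4 silenced samples. Grhl2 (−0.78), a regulator of epithelial identity, and plakoglobin, Jup (−0.71), fell. Krt18 also stands in the trophoblast and primed epiblast lists, and Krt8 in the trophoblast list.

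The trophoblast and germline lists both held large rises. Of 16 trophoblast genes 8 rose and 5 fell (median 0.22, range 0.07 to 0.55). In 3 of the 16 no silenced channel was well above background at 24 h. Among the 12 well above background in all 4 silenced channels, 5 rose and 4 fell. Next to Tfap2c and Krt18, the X-linked homeobox genes Rhox9 (6.73 and 6.68 at 24 h and 8.76 and 8.72 at 96 h) and Esx1 (7.78 and 7.68 at 24 h and 9.17 and 9.22 at 96 h) rose, and Krt7 and Rhox6, not well above background at 24 h, rose by at least 2.07-fold and 1.99-fold (limma adjusted p = 2.6e-07 and 3.8e-07). The lineage's defining factor Cdx2 had 6.21 and 6.42 at 24 h and 5.90 and 5.94 at 96 h and was not well above background at 96 h, a fall of at least 1.27-fold (limma adjusted p = 0.001). Elf5, Gata3 and Tpbpa were not well above background in any silenced channel. Of 17 germline genes 11 rose and 1 fell (none without 96 h replicate 2), with a median of 0.64 (range 0.34 to 0.97). Sycp3, of the synaptonemal complex, had 7.14 and 6.89 at 24 h and 9.44 and 9.48 at 96 h (2.45, SE 0.10, limma adjusted p = 1.3e-09). Mael, of the piRNA pathway, had 8.29 and 8.49 at 24 h and 10.06 and 10.12 at 96 h, the homeobox gene Rhox5 11.74 and 11.72 at 24 h and 12.90 and 12.89 at 96 h, and Dazl, a germ cell RNA-binding protein, 6.79 and 6.62 at 24 h and 7.39 and 7.37 at 96 h. Hormad1 (0.08) and Piwil2 (0.10) did not pass.

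**Figure D3:**
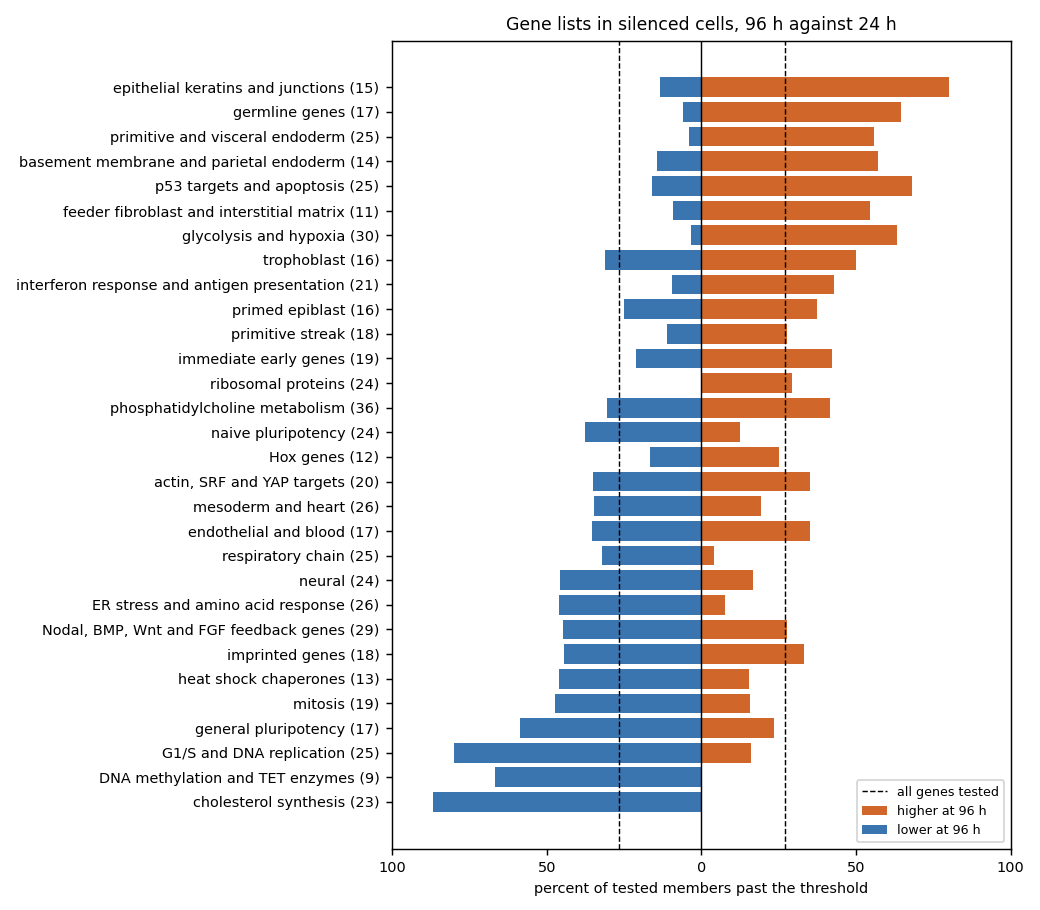
Percent of tested members that passed the test higher (orange, right) or lower (blue, left) at 96 h in silenced cells, for 30 gene lists with the number of genes tested in brackets, ordered by median difference; dashed lines give the shares over all 21751 genes, 27% and 26.7%. Epithelial genes (12 of 15 higher) and cholesterol synthesis (20 of 23 lower) lie at opposite ends.

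Id1, Id2 and Id3 fell, and readouts of FGF and Wnt signalling went both ways. Of 29 feedback and target genes 8 rose and 13 fell, 27.6% and 44.8% beside 27% and 26.7% of all genes (median −0.15, range −0.28 to −0.10). Of the Id genes, which BMP induces and which block bHLH factors, Id1 had 10.40 and 10.06 at 24 h and 8.62 and 8.60 at 96 h and Id2 9.14 and 9.23 at 24 h and 8.28 and 8.38 at 96 h, both lower at 96 h like Id3. Id4 (−0.22, limma adjusted p = 0.063) did not pass, and its second probe gave 0.26. Of FGF and ERK readouts, Etv4 had 11.93 and 11.97 at 24 h and 10.11 and 9.93 at 96 h and fell, Etv5 changed by −0.82 and Spry4 by −0.79, while Dusp4 (9.09 and 9.16 at 24 h and 10.84 and 10.65 at 96 h) and Spry1 (0.78) rose and Dusp6 (−0.02) did not pass. Among Wnt pathway genes the secreted antagonist Notum had 8.76 and 8.78 at 24 h and 6.75 and 6.82 at 96 h and the nuclear factor Lef1 8.24 and 8.58 at 24 h and 6.55 and 6.63 at 96 h, both down, whereas its relative Tcf7 rose by 0.74 and Axin2 (−0.10) did not pass. Immediate early genes rose in 8 and fell in 4 of 19. Myc, the growth regulator, had 10.79 and 10.81 at 24 h and 8.69 and 8.57 at 96 h (−2.17, SE 0.08, limma adjusted p = 3.3e-10). Ier5 (1.70), Ier3 (1.10), Klf10 (0.92) and Fos (0.78) moved up as Egr1 and Myc moved down.

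G1/S and DNA replication genes were among the most uniformly lower: 20 of 25 fell, 4 rose and the median was −0.41. Without 96 h replicate 1 the falls numbered 13. Ccne1, cyclin E1 of the G1/S transition, had 14.40 and 14.55 at 24 h and 12.65 and 12.84 at 96 h (−1.73, SE 0.09, limma adjusted p = 5.7e-09). The replicative helicase subunit Mcm3 had 12.43 and 12.43 at 24 h and 11.53 and 11.44 at 96 h, the ribonucleotide reductase subunit Rrm2 12.19 and 12.13 at 24 h and 11.21 and 11.24 at 96 h, and the loading factor Cdc6 changed by −0.96. Ccnd2 (−0.89) and Ccnd3 (−0.68) fell too, but Mcm7 (0.05) did not pass. The 4 that rose were all inhibitors of cyclin-dependent kinases, Cdkn1a, Cdkn1b, Cdkn2a and Cdkn2b, as seen after their values were known; the imprinted inhibitor Cdkn1c had the largest fall of the list, with 9.86 and 10.07 at 24 h and 8.08 and 8.01 at 96 h. Mitotic genes were lower in 9 of 19 cases, by 0.28 to 0.86, with Plk1 at 13.60 and 13.67 at 24 h and 12.77 and 12.78 at 96 h. Of them, 3 rose, by 0.22 to 0.37, and none did without 24 h replicate 2 or 96 h replicate 2.

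Of 25 genes listed for p53 and apoptosis 17 rose and 4 fell (2 without any 1 of the 4 silenced samples), with a median of 0.38 (range 0.29 to 0.87). Cdkn1a, the p21 inhibitor, had 9.43 and 9.30 at 24 h and 11.06 and 10.92 at 96 h (1.63, SE 0.08, limma adjusted p = 5.1e-09). The ubiquitin ligase gene Mdm2, which limits p53, had 10.47 and 10.26 at 24 h and 11.63 and 11.64 at 96 h, and Ccng1 had 11.63 and 11.84 at 24 h and 12.91 and 12.94 at 96 h. Of genes for pro-apoptotic BH3 proteins, Bbc3 (PUMA) had 11.21 and 10.86 at 24 h and 12.81 and 12.56 at 96 h and Pmaip1 (NOXA) 10.07 and 10.06 at 24 h and 11.38 and 11.24 at 96 h, both higher at 96 h, while Bax (−0.02) did not pass. Trp53inp1 (1.75), Zmat3 (1.26) and Phlda3 (1.21) rose. The survival gene Mcl1 rose by 0.91 and Bcl2l1 fell by 0.41 on the log2 scale. Trp53 itself had 12.97 and 12.72 at 24 h and 12.54 and 12.57 at 96 h; its fall lost its call without 24 h replicate 1 (−0.14) or 96 h replicate 1.

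Hypoxia-induced genes and glucose transporters were higher at 96 h, while several abundant glycolytic enzymes did not pass. Of 30 genes in the list 19 rose and 1, Ndrg1, fell (none without 96 h replicate 1 or 2, and the Ndrg1 call was also lost without 24 h replicate 1), with a median of 0.30 (range 0.17 to 0.40). Besides Ddit4, the mitophagy receptor Bnip3 had 11.94 and 11.87 at 24 h and 13.82 and 13.90 at 96 h (1.95, SE 0.08, limma adjusted p = 7.1e-10). The angiogenic factor Vegfa had 8.53 and 8.66 at 24 h and 10.25 and 10.51 at 96 h, and 2 dimmer probes rose by 1.00 and 1.48. The glucose transporters Slc2a1 (12.93 and 13.25 at 24 h and 13.94 and 14.35 at 96 h) and Slc2a3 (14.28 and 14.48 at 24 h and 15.29 and 15.45 at 96 h), the oxygen sensor Egln1 (1.02), Pdk1 (0.81) and the prolyl hydroxylase P4ha1 (0.70) were higher at 96 h. Pgk1 and Gpi1 rose by 0.60 and 0.62. The enzymes Gapdh (0.04), Aldoa (0.03), Eno1 (−0.10) and Ldha (−0.12) and the classic hypoxia marker Car9 (−0.12) did not pass. The core of the hypoxia response element, ACGTG on either strand, was searched in the 250 bases before each start site in RefSeq's promoter table (GRCm38.p6). It was present for 17 of 28 tested list genes with an entry, against 24.3% of 10521 tested genes and 16.6% of 32851 windows, where genes with several start sites counted once if any window matched. The windows of Bnip3 (chr7:138909507-138909756, minus strand), where the 2 matches overlap, and P4ha1 (chr10:59323046-59323295, plus strand) are shown 5′ to 3′ as examples of genes that rose, with the matches in capitals.
Bnip3: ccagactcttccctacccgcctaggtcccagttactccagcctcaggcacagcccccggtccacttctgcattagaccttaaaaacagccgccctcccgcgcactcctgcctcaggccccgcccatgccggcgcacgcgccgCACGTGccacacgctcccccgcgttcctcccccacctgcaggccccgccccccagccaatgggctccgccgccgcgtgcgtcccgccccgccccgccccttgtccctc
P4ha1: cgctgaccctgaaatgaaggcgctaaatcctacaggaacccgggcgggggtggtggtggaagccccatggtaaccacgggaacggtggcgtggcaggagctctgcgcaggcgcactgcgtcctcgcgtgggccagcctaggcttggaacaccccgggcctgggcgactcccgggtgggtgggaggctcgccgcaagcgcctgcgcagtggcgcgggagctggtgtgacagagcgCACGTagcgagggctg
A match describes these letters only and is not a measured site.

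Cholesterol synthesis had the most one-sided change of the 31 lists: 20 of 23 genes fell and none rose in limma, also at an unadjusted p of 0.05, with a median of −0.88, and of −0.54 in control cells. These genes, which SREBP2 induces when sterols are low, fell along the pathway from its start. Mvd, an enzyme of the mevalonate steps, had 10.92 and 11.00 at 24 h and 9.88 and 9.68 at 96 h (−1.18, SE 0.08, limma adjusted p = 1.1e-07). Fdps, which makes farnesyl diphosphate, had 11.63 and 11.80 at 24 h and 10.62 and 10.76 at 96 h, and the squalene epoxidase Sqle 11.86 and 12.06 at 24 h and 11.01 and 11.16 at 96 h. In the sterol branch Cyp51 had 8.35 and 8.65 at 24 h and 7.35 and 7.52 at 96 h and Msmo1 12.51 and 12.21 at 24 h and 11.36 and 11.43 at 96 h. Insig1, which retains SREBP when sterols are plentiful, had 8.57 and 8.66 at 24 h and 7.55 and 7.44 at 96 h. No time groups overlapped in these genes, which were picked with their values known. Srebf2 (−0.21), Pmvk (−0.16) and Tm7sf2 (0.14) did not pass. The CCAAT box, bound by NF-Y, was found on either strand in the 250 bases upstream of all 15 tested genes of the list that have an entry, against 40.5% of 10521 tested genes; the stretch TCACCCCAC was found in 1 of the 15, Hmgcs1 (−0.62), against 0.665%. Hmgcs1 (chr13:119690101-119690350, plus strand), with 3 CCAAT boxes on the reverse strand, and Insig1 (chr5:28071162-28071411, plus strand), with 1, are shown 5′ to 3′ for the fallers; capitals mark CCAAT or its complement ATTGG and, in Hmgcs1, TCACCCCAC.
Hmgcs1: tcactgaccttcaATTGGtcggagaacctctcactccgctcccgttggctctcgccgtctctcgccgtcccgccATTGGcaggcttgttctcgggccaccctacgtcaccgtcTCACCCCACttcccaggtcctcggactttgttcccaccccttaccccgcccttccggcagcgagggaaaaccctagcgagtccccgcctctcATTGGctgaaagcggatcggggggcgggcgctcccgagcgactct
Insig1: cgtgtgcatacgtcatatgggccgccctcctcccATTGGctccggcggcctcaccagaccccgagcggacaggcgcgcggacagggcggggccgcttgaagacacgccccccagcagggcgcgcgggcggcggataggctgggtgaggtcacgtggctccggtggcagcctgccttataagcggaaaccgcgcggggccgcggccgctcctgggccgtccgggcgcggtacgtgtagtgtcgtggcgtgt
The 2 motifs do not overlap in these windows.

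**Figure D4:**
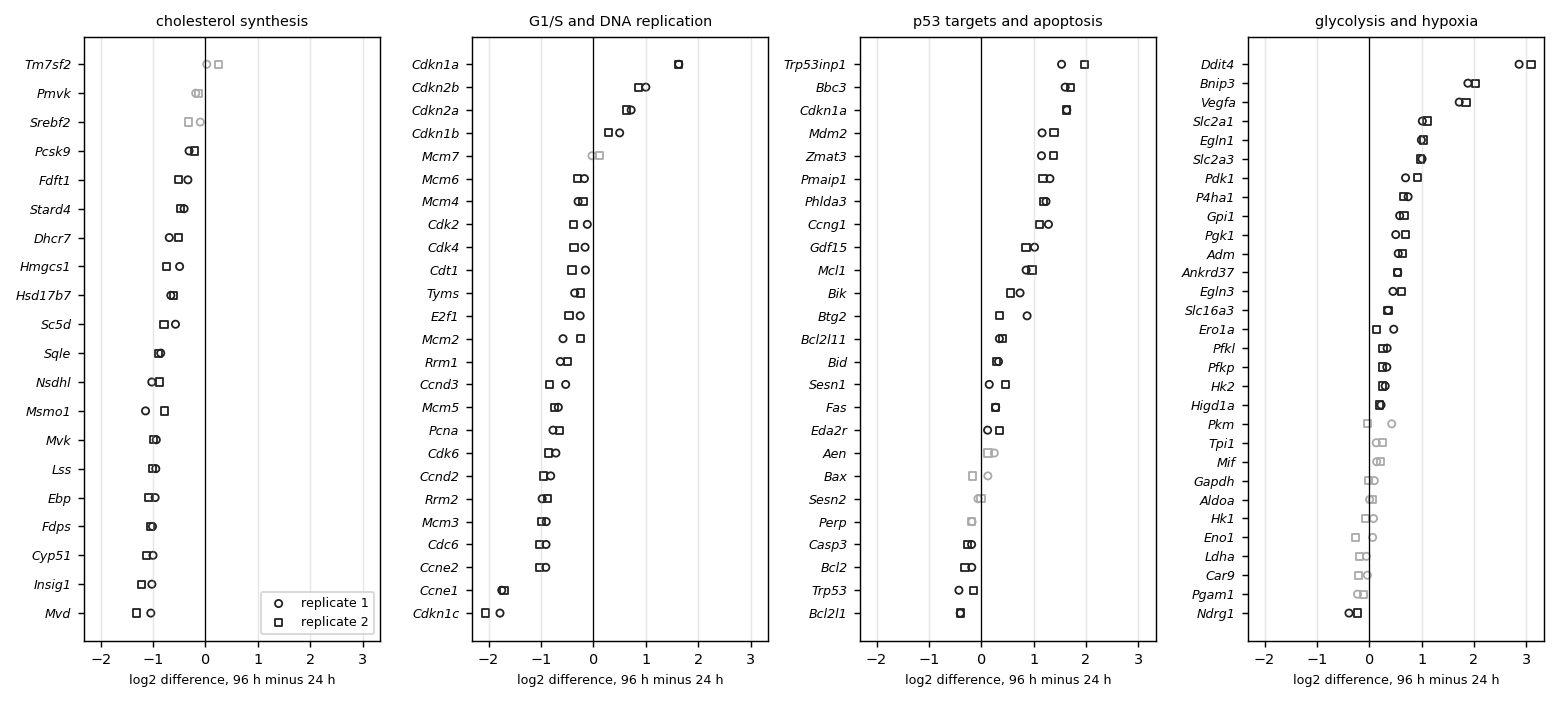
Log2 difference between 96 h and 24 h in silenced cells for the tested members of 4 lists, other than 3 cholesterol genes not reported here; circles are replicate 1 (Cy3), squares replicate 2 (Cy5), black for genes past the threshold and grey for the rest. Most cholesterol genes lie left of 0 (20 of the 23 tested called lower), genes of p53 targets and apoptosis mostly right of it (17 of 25 called higher).

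Phosphatidylcholine metabolism, the pathway of Pnpla6 itself, was divided (median 0.07, range 0.02 to 0.12). Of 36 genes 15 were higher (41.7%) and 11 lower (30.6%), beside 27% and 26.7% of all genes. Synthesis enzymes fell in part. Pcyt1b, an isoform of the rate-limiting enzyme, had 8.98 and 8.82 at 24 h and 7.59 and 7.50 at 96 h (−1.35, SE 0.08, limma adjusted p = 3.2e-08), its paralogue Pcyt1a changed by −0.39, and Ptdss1, which exchanges the head group for serine, had 9.47 and 9.39 at 24 h and 8.77 and 8.62 at 96 h. Chpt1, of the last synthesis step, and the choline transporter Slc44a1 rose, by 0.70 and 1.37. Among breakdown enzymes, Pnpla7, the closest relative of Pnpla6, had 9.07 and 8.94 at 24 h and 10.37 and 10.07 at 96 h, the lysophospholipid and glycerophosphodiester hydrolase Gde1 9.71 and 9.80 at 24 h and 10.87 and 10.76 at 96 h, and the triglyceride lipase Pnpla2 9.59 and 9.85 at 24 h and 10.60 and 10.93 at 96 h. Lpin1, the phosphatidate phosphatase lipin 1, had 9.09 and 8.88 at 24 h and 10.55 and 10.34 at 96 h, the largest rise of the list. Chka (0.03), Lpcat1 (0.01) and Lypla1 (0.07) did not pass on their brightest probes. Other, dimmer probes gave −0.42 for Chka and −0.42 and −0.48 for Lypla1.

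Stress, mitochondrial and ribosomal gene lists had medians between −0.17 and 0.07. The respiratory chain list had 4% of members higher and 32% lower, and the ribosomal list 29.2% higher, beside 27% and 26.7% of all genes. Of 13 heat shock genes 6 fell and 2 rose (median −0.17, range −0.40 to −0.16); Hsph1 had 14.04 and 14.15 at 24 h and 12.40 and 12.41 at 96 h, while the small heat shock gene Hspb8 had 9.70 and 9.66 at 24 h and 10.95 and 10.86 at 96 h and rose. In the list of amino acid response and unfolded protein genes 12 of 26 fell and 2 rose (median −0.15, range −0.36 to −0.12). Psat1 of serine synthesis had 11.49 and 11.64 at 24 h and 10.70 and 10.80 at 96 h. Atf3, a stress-induced factor, had 7.26 and 7.34 at 24 h and 6.69 and 6.71 at 96 h, and Ddit3, the factor CHOP, rose by 0.94, while Hspa5 (−0.08), Atf4 (0.08) and Asns (−0.01) did not pass. Of 25 respiratory chain genes 8 fell (4 without 96 h replicate 1 or 2, 11 without 24 h replicate 1 and 18 with arrays centred on the median only) and 1 rose, Ndufa4, whose call was lost without 24 h replicate 1, 96 h replicate 1 or 96 h replicate 2. Of 24 ribosomal protein genes 7 rose (4 without 96 h replicate 1 or 2) and none fell in limma (0 at an unadjusted p under 0.05, and 1 called without 24 h replicate 2); Rps19 had 14.48 and 14.48 at 24 h and 15.29 and 15.30 at 96 h.

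Genes that prepare antigens for presentation were among those that rose. Of 21 genes of interferon response and antigen presentation 9 rose and 2 fell (1 without 96 h replicate 1 or 2), with a median of 0.19 (range 0.09 to 0.65). In 3 of the 21 no silenced channel was well above background at 24 h. Among the 14 well above background in all 4 silenced channels, 6 rose and 1 fell. Psmb9, an immunoproteasome subunit, had 8.05 and 8.06 at 24 h and 9.88 and 9.68 at 96 h (1.73, SE 0.08, limma adjusted p = 2.8e-09). B2m, the light chain of MHC class I, had 9.88 and 9.98 at 24 h and 11.06 and 11.49 at 96 h, Bst2 12.43 and 12.27 at 24 h and 13.96 and 13.48 at 96 h and the peptide transporter Tap1 6.33 and 6.26 at 24 h and 7.02 and 6.92 at 96 h. Oas1a, an RNA sensor, fell, with 9.44 and 9.85 at 24 h and 8.26 and 8.41 at 96 h. Heavy chains of MHC class I, H2-K1 (0.10) and H2-D1 (−0.16), did not pass on their brightest probes. Other, dimmer probes gave −0.25 and −0.26 for H2-K1 and −0.40 for H2-D1. Of endothelial and blood genes 6 of 17 rose and 6 fell: Icam2 had 8.74 and 8.95 at 24 h and 6.31 and 6.17 at 96 h and Esam 8.22 and 8.06 at 24 h and 6.54 and 6.46 at 96 h, whereas the TGF-beta co-receptor Eng had 8.79 and 8.51 at 24 h and 9.79 and 9.58 at 96 h. Of 5 fixed blood and endothelium markers only Gata1 was tested, with 6.46 and 6.46 at 24 h and 6.37 and 6.39 at 96 h, and Cdh5, Ptprc and Hbb-bh1 were not well above background in any silenced channel.

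DNA methylation genes fell or did not pass, and imprinted and actin genes went both ways. Of 9 DNA methylation genes 6 fell and none rose in limma, with 0 at an unadjusted p under 0.05 (median −0.64): Uhrf1, which recruits the maintenance methyltransferase, had 13.37 and 13.36 at 24 h and 12.51 and 12.58 at 96 h, Dnmt3l 15.94 and 15.65 at 24 h and 15.15 and 14.95 at 96 h and Tet2 9.20 and 9.43 at 24 h and 8.62 and 8.72 at 96 h, while Dnmt1 (−0.05) did not pass. Of 18 imprinted genes 6 rose and 8 fell. Igf2, a paternally expressed growth factor, had 6.79 and 6.72 at 24 h and 7.91 and 7.82 at 96 h and Sgce 9.30 and 9.34 at 24 h and 10.82 and 10.91 at 96 h, both higher, while Phlda2, maternally expressed, had 11.16 and 11.24 at 24 h and 9.68 and 9.76 at 96 h and fell. Of 20 genes of actin, SRF and YAP 7 rose and 7 fell. Tpm1 (10.65 and 10.42 at 24 h and 12.02 and 11.94 at 96 h) and Tagln (8.94 and 8.87 at 24 h and 10.33 and 10.05 at 96 h) rose, and the smooth muscle actins Acta2 (12.90 and 13.23 at 24 h and 11.97 and 12.02 at 96 h) and Actg2 (−1.16) fell, though a much dimmer Acta2 probe gave 0.60. The list of the state resembling 2-cell embryos had 2 tested genes, Tcstv1 (−0.12) and Tcstv3 (0.10), and neither passed in limma, with 0 at an unadjusted p under 0.05.

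The last comparison asked where the change over time differed between silenced and control cells. In control cells 11513 genes (52.9%) changed from 24 h to 96 h, and 9746 of the 9774 genes called in both kinds of cell moved the same way. The 2 changes come from the same arrays and spots. The difference itself passed for 921 genes (4.23%), 322 with a more positive change in silenced cells (1.48%) and 599 with a more negative one (2.75%). Only 24 of them differed by 1 log2 unit or more, 2 upward and 22 downward. The count of 921 depended on single samples: it was 288 without 24 h replicate 1, 406 without 24 h replicate 2, 94 without 96 h replicate 1 and 132 without 96 h replicate 2. It was also 4415 with limma's own estimate of the correlation between the channels of a spot and 0 with the authors' deposited log ratios, although limma gave 2939 genes an unadjusted p below 0.05 there.

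Among genes with a plain symbol Pou5f1 differed most. It fell by 1.41 on the log2 scale in silenced cells. Control cells had a change of 0.32, from a mean of 13.70 to 14.03, which did not pass (limma adjusted p = 0.076). The difference was −1.74 (SE 0.15, limma adjusted p = 4.6e-05), with −1.57 and −1.90 in the 2 pairs. Its call was lost without the dye term. The silenced values at 24 h, 14.68 and 14.09, lay above the control mean, and those at 96 h, 13.70 and 12.25, below it. Trim55, a muscle ring-finger ligase, rose in both, by 1.77 in silenced and 3.29 in control cells (−1.53, limma adjusted p = 0.0012), and lost the call without 96 h replicate 2, with processed signals and without the dye term. Fndc3c1 rose by 2.87 against 4.18, the zinc transporter Slc39a8 by 1.39 against 2.58 (lost with processed signals; a dimmer probe gave 0.48 in silenced cells), and the actin-binding Tagln by 1.29 against 2.54. Pdpk1, a kinase upstream of AKT, rose by 1.40 against 2.75 on its brightest probe, but 2 other probes gave −0.34 and −0.20 in silenced cells. Ddx25 rose by 0.94 against 2.12 (−1.18), a difference whose call was lost without any 1 silenced sample, and a second probe changed over time by −0.51 in silenced cells, opposite in sign to the tested one. Nefl fell more in silenced (−2.76) than in control cells (−1.60).

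In the other direction Cubn stood out, with a rise of 1.79 in silenced and 0.69 in control cells (difference 1.10, SE 0.09, limma adjusted p = 3.9e-05). Hspa1a, the inducible HSP70, had a change of −0.36, lost without replicate 2 of either time, in silenced and −1.39 in control cells. Pnpla6 rose in silenced cells and changed by −0.34 in control cells (difference 0.87, SE 0.09, limma adjusted p = 1.5e-04). The Wnt antagonist Sfrp1 changed by −0.69 against −1.40, the sialyltransferase St3gal3 by 0.73 against 0.02, the water channel Aqp8 by 0.85 against 0.14, the matrix protein Tgfbi by 0.14 against −0.57 and the kallikrein Klk1 by −0.28 against −0.98. A second St3gal3 probe gave 0.05 in silenced cells. St3gal3 and Aqp8 lost the call without replicate 1 of either time, with processed signals and without the dye term. Tgfbi and Klk1 lost it without 96 h replicate 2, and Tgfbi also without the dye term. By list, 8 of 16 primed epiblast genes, 4 of 11 feeder and interstitial matrix genes and 7 of 20 actin, SRF and YAP genes had a more negative change in silenced cells, beside 2.75% of all genes. A more positive change was called for 5 of 30 genes of glycolysis and hypoxia, 4 of 24 naive pluripotency genes and 5 of 36 of phosphatidylcholine metabolism, beside 1.48% of all genes. Of those with a more negative change, Pim2 rose by 0.96 against 1.89, Ccn2 by 0.28 against 1.16, and Cnn1 by 1.00 against 1.83. Of 23 cholesterol genes 4 had a more negative change, among them Fdps, Hmgcs1 and Msmo1.

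**Figure D5:**
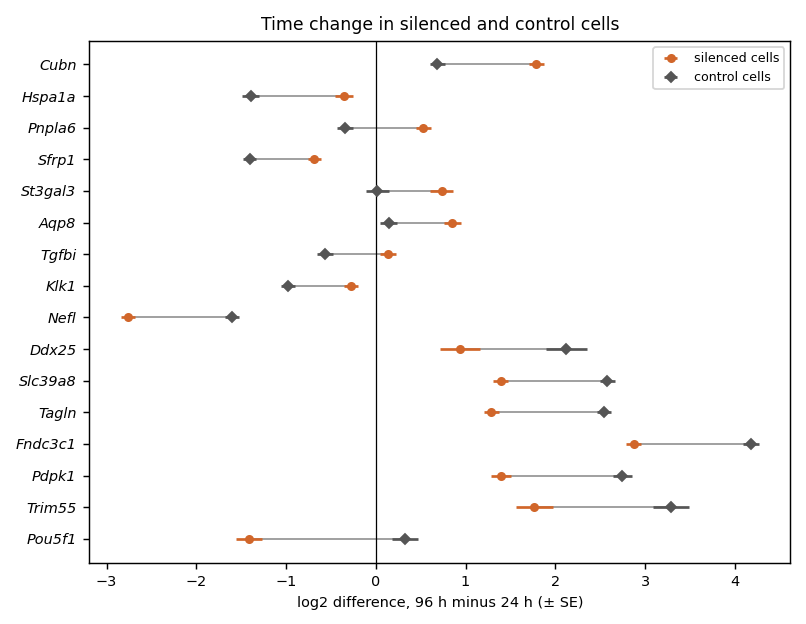
Log2 difference between 96 h and 24 h, with its SE, in silenced cells (orange circles) and control cells (grey diamonds) for the 8 genes with the most positive and the 8 with the most negative difference between the 2 changes. Changes of Pou5f1, Pnpla6 and Tgfbi have opposite signs in the 2 kinds of cell. Those of Pou5f1 in control cells and of Tgfbi in silenced cells did not pass. Trim55, Tagln and Fndc3c1 rise in both, less in silenced cells.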

How the data were processed

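Total RNA from silenced and control cells was labelled with Cy3 or Cy5 and hybridised in pairs to 4 arrays. Per the file headers, the authors scanned the arrays and made spot intensities with Agilent Feature Extraction 10.7.1.1, which also wrote a processed signal and a log10 ratio of Cy5 over Cy3. The authors' deposited series table holds these log10 ratios, turned to silenced over control on the arrays with control in Cy5 (largest gap 4.97e-06, column medians 0). The submitters' processing notes name limma, with no version or setting.

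Median spot signals and median local background were read in R 4.3.3 with limma 3.58.1; mean signals were not used here. Signals were corrected with normexp (offset 50), normalized within arrays by loess (span 0.3, control spots at weight 0) and between arrays by Aquantile. Of 45018 spots, 1639 controls and 1 non-uniform spot were left out. Of 41174 probes, 28079 were well above background in both channels of at least 1 RNA group and were tested, with the brightest probe of each gene, for 21751 genes. Symbols came from RefSeq accessions (24375 probes, GRCm38.p6 table). The 8 channels were fitted separately with limma's lmscFit: 4 RNA groups and a dye term, with 3 residual degrees of freedom. The correlation between the channels of a spot, 0.464, was estimated from pooled variances. This was chosen after the data were seen, because limma's consensus estimate was too high in simulated data of known correlation. A single correlation was simulated, so whether the consensus estimate of 0.896 is too high in these data was not tested. With it 8126 genes changed over time in silenced cells and 4415 differed from control cells in that change. Tests were two-sided, with Benjamini-Hochberg adjustment over all genes and a threshold of 0.05. The scripts were tested on simulated data with a chosen spread and 100 genes changed by each of 2 sizes. They recovered 1 of 100 changes of 0.5 log2 units and 85 of 100 changes of 1, with 3 false calls, in a set of 21751 genes. On the arrays 53.6% of genes were called over time in silenced cells, with a median absolute change of 0.45 log2 units among those called. Recovery with so large a share of changed genes was not tested. The number of arrays limits the precision.

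A probe not well above background in a group has only a bound there: the mean of the bright group was set against, per array, the higher of the lowest signal among probes well above background and the probe's own. The members, gene lists and tests were chosen with earlier results of these data known. Named genes were Pnpla6, the 15 largest rises and falls with a plain symbol, up to 4 called members of each list in each direction, a fixed set of marker genes and the 8 largest differences from control in each direction; other list members were chosen after their values were seen. Alternatives changed the background correction, both normalizations, the filter on dim probes, the choice of probe, the dye, replicate and slide terms, and left out each silenced sample in turn. Fits on log ratios alone, on the authors' deposited log10 ratios and with the consensus correlation were added after the data were seen. A few genes are not reported here; they remain in the counts of their lists.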

Additional observations from a re-analysis of the deposited data

Results flagged for a closer look

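The change over time differed between silenced and control cells, by a test of the difference itself in limma, for the 8 genes of largest size in each direction. In silenced cells the change was more positive for Cubn (by 1.10 on the log2 scale), Hspa1a (1.04), Pnpla6 (0.87), Sfrp1 (0.72), St3gal3 (0.72), Aqp8 (0.71), Tgfbi (0.70) and Klk1 (0.70). It was more negative for Pou5f1 (−1.74), Trim55 (−1.53), Pdpk1 (−1.35), Fndc3c1 (−1.31), Tagln (−1.25), Slc39a8 (−1.19), Ddx25 (−1.18) and Nefl (−1.16). The authors' deposited log ratios gave the same direction for these 16 genes, and none of the 16 passed there. Groups held 2 samples, too few to look for a sample that stands apart.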

How the results depend on the processing

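The count of genes that changed over time in silenced cells ranged from 8126, with limma's consensus correlation, to 12658, for silenced channels alone with the replicate block, and from 8390 to 10716 when 1 silenced sample was left out. With slide as a block it was 9704. With Feature Extraction's processed signals 2207 genes rose and 1302 fell by 2-fold or more. The difference from control cells depended most on the settings: 178 genes with processed signals (52 more positive, 126 more negative), 256 with median centring within arrays (79 and 177), 71 without the dye term (7 and 64), 4415 with the consensus correlation (2134 and 2281), 1500 with log ratios alone (613 more positive), and 0 with the authors' deposited log ratios (0 and 0), where limma gave 2939 an unadjusted p below 0.05. Leaving out 1 silenced sample gave 94 to 406 genes, 10 to 119 more positive and 84 to 287 more negative. The cause was not tested.

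Of 4080 values of 241 named genes under the alternatives, 3934 kept their direction and side of the threshold, 138 lost the call, 3 gained it and 5 changed direction. With the mean of a gene's probes Bcl2 was at 0.0096, Gata6 at 0.31 and Tuba3a at 0.28; Gata4 was at 0.54 with processed signals and Ndufa4 at −0.0021 with arrays centred on the median only. The reported fit held no replicate term, while the silenced channels compared share both dye and replicate number. The difference of replicate 1 minus replicate 2 at 24 h was correlated over genes with that at 96 h. This gave 0.26 for array means of both channels and 0.50 for the silenced channels, which also share the dye. The replicate block gave 12573 calls and kept all 11669. Dim probes, not well above background, limit the measured size of change.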
